A study of Rattus norvegicus with 12 samples.

Results

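Proteins that liver cells secrete are folded in the endoplasmic reticulum (ER), and 10 genes of that machinery are described here. They are a set of named genes, and every probe set that the platform annotation maps to one of the 10 symbols alone was taken. This gave 13 of 31042 non-control probe sets: 3 for Canx, 2 for Pdia3 and 1 for each of the other genes. All 13 passed the filter on dim probe sets, and no probe set was shared with another gene symbol. Liver RNA was measured on 1-colour Affymetrix arrays, 1 array per rat and 12 in all. The groups were 3 Sprague-Dawley (SD) rats raised germ-free (animals 1, 3 and 4), 3 SD rats with a conventional flora (6, 7 and 8), 3 Han Wistar (HW) rats given streptomycin and penicillin in their drinking water for 8 days (13, 14 and 15) and 3 untreated Han Wistar rats (1, 2 and 3). The concentrations were 4 mg/ml of the first and 2 mg/ml of the second, and the labels leave unclear whether they refer to a stock solution or to what the rats drank. The sources used here give no age, sex, diet or sampling hour, and any such difference between groups cannot be told apart from the treatment. Each treated group was set against the control of its own strain.

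New secretory proteins enter the ER unfolded and are held by Hspa5 (BiP), an ER form of the 70-kilodalton heat shock proteins, and by Hsp90b1 (Grp94), the ER form of the 90-kilodalton family, while disulphide isomerases and lectin chaperones shape bonds and sugar-bearing chains. When unfolded protein builds up, membrane sensors start the unfolded protein response, in which the transcription factor Xbp1 raises folding and degradation genes. Proteins that fail to fold are pulled back to the cytosol, with the ATPase Vcp (p97) supplying the force, and are handed to the proteasome.

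A known feature of many such genes is the ER stress response element (ERSE), in which CCAAT and CCACG stand 9 bases apart and which ATF6 and Xbp1 can act on. RefSeq promoter windows (GRCr8, 250 bases before to 50 after the gene start) are described for 7 of the 10 genes (Hspa5, Hsp90b1, Pdia4, Calr, Dnajb9, Xbp1 and Vcp). The ERSE letters, searched on both strands, occurred in the windows of 4 of these 7 and in 0.0657% of all 33469 windows. The matches are printed to describe the sequences. Since the element is a known feature of many such genes, the count is not independent of the choice of members. Capitals mark the element, and a reverse match reads as CGTGG followed by ATTGG.
Hspa5, chr3:38452963-38453001, plus strand: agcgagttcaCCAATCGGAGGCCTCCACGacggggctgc
Hsp90b1, chr7:23012441-23012479, minus strand: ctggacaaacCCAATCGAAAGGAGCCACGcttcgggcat
Hsp90b1, chr7:23012337-23012375, minus strand: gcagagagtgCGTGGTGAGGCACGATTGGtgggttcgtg
Calr, chr19:40213125-40213163, plus strand: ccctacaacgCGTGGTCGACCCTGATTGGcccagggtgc
Xbp1, chr14:84604548-84604586, plus strand: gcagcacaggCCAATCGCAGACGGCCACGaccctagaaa

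The element of Hspa5 lay from 43 to 25 bases before the start, and that of Xbp1 from 65 to 47 bases before it. Hsp90b1 held a match on each strand, and the match of Calr lay over 200 bases upstream. The related ERSE-II letters (ATTGG and CCACG, 1 base apart) were found in 0 of the 7 windows and in 0.0508% of all windows. The UPRE letters TGACGTGG were found in 0.595% of all windows and, among the 7, in that of Vcp, 223 to 216 bases before its start. Vcp is shown for that match, and its window held no ERSE match.
Vcp, chr5:62025593-62025620, minus strand: tacggccaatTGACGTGGcgttactagg

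A match to these letters describes the sequence and does not show a factor acting there. No match was found in the windows of Pdia4 and Dnajb9.

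**Figure D1:**
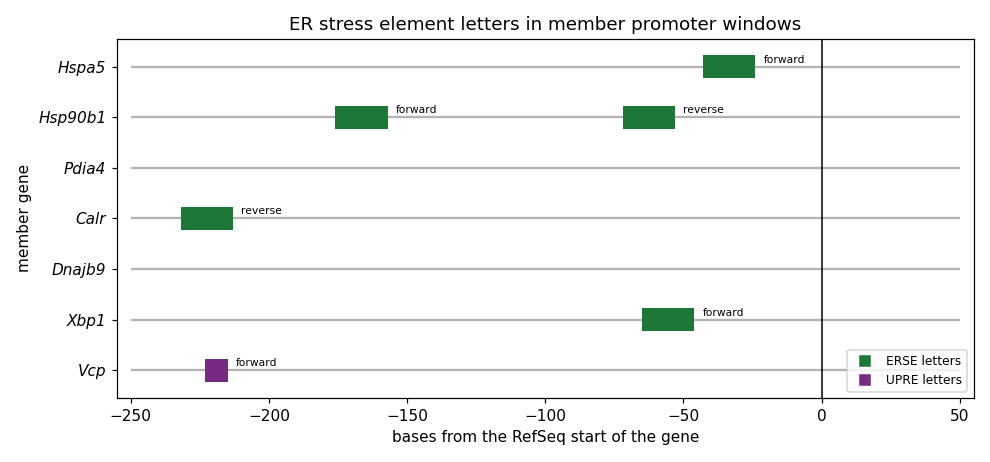
Position of ERSE and UPRE letters (boxes, with the strand of the match) in the promoter windows of 7 member genes, on an axis of bases from the RefSeq gene start. ERSE letters stand in 4 windows, with a pair in Hsp90b1, and UPRE letters in the window of Vcp.

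The arrays read the tissue as labelled: 7 hepatocyte markers, Alb and Ttr among them, summed to signals of 49504 to 55368 in germ-free, 46569 to 50152 in conventional, 38702 to 47582 in antibiotic-treated and 29319 to 36106 in untreated livers. Markers of B and plasma cells, which are rich in the ER folding machinery, summed over 5 genes to 36.7 to 63.9 in germ-free, 41.2 to 70 in conventional, 72.3 to 97.1 in antibiotic-treated and 74.7 to 124.5 in untreated livers. Of these 5 genes 1 passed the filter on dim probe sets. In this bulk tissue, fewer cells of a type and less RNA per cell cannot be told apart. As a measure of RNA quality, the ratio of 3' over 5' actin probe sets, which is higher in degraded RNA, was 4.39 ± 0.762 for germ-free and 5.37 ± 0.839 for conventional rats (SD over 3 animals; two-sided exact permutation p = 0.2). It was 2.73 ± 0.131 for antibiotic-treated and 2.55 ± 0.123 for untreated rats (two-sided exact permutation p = 0.2). The same ratio for GAPDH probe sets was 1.52 ± 0.286 for germ-free and 1.63 ± 0.164 for conventional rats (two-sided exact permutation p = 0.6). For antibiotic-treated and untreated rats it was 1.41 ± 0.0796 and 1.34 ± 0.0695 (two-sided exact permutation p = 0.5). The smallest p that 3 against 3 animals allow is 0.1. Signals below are linear and as deposited, and each fold change is given as log2(signal + 16) with limma's standard error.

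In germ-free livers, set against conventional ones, 1 of the 10 genes fell, Vcp, 0 rose and 9 did not pass limma at an adjusted p under 0.05, and 2 (Vcp and Dnajb9) had an unadjusted p under 0.05, beside 28.1% of all genes. Across all 9300 genes tested 13.2% passed in this comparison, 6.44% higher and 6.74% lower, so 1 call among 10 lies near that background. The median log2 fold change of the 10 genes was -0.01, and that of all genes was 0.02. The groups did not overlap for 2 of the 10 genes, Vcp and Hsp90b1, beside 29.9% of all genes.

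Vcp is the ATPase that extracts ubiquitin-tagged proteins from the ER membrane. Its signal was 1373.4, 1247.0 and 1329.5 in germ-free animals 1, 3 and 4, against 1868.6, 1806.1 and 2086.2 in conventional animals 6, 7 and 8. Every germ-free liver lay below every conventional one, by a gap wider than the range within either group. The means were 1317 ± 64.2 and 1920 ± 147 (SD, n = 3 each), which is a ratio of 0.689. The log2 fold change was -0.54 ± 0.09 (SE; 95% interval -0.73 to -0.34; limma adjusted p = 0.00156). Vcp kept its call under all 24 alternatives, with log2 values from -0.58 to -0.48 and adjusted p from 0.000936 to 0.0201. In Han Wistar rats Vcp stood at 1413.4, 1428.0 and 1512.3 in antibiotic-treated animals 13, 14 and 15, against 1361.0, 1287.0 and 1464.1 in untreated animals 1, 2 and 3. These groups overlapped (log2 0.08 ± 0.09, adjusted p = 0.813). The difference between the comparisons passed (log2 -0.62 ± 0.13, adjusted p = 0.0119), but not with the actin ratio as a covariate (log2 -0.58, adjusted p = 0.0776). Conventional livers had the highest mean of the 4 groups and overlapped with none of the others. The means of the antibiotic-treated, untreated and germ-free groups were 1451, 1371 and 1317, and neighbours in that order overlapped. Among the members Vcp varied least between animals of a group, with a residual SD of 0.0833 (log2), at the 3.8th percentile of all genes.

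The 70- and 90-kilodalton chaperones did not pass in either comparison. Hspa5, the BiP chaperone that also holds the stress sensors inactive, had signals of 2852.9, 4165.3 and 3918.3 in germ-free livers, against 3882.1, 3871.9 and 3296.3 in conventional ones. The groups overlapped, with germ-free animal 1 the lowest of all 12 livers (log2 -0.03 ± 0.14, 95% interval -0.33 to 0.27, adjusted p = 0.916). Its signals were 5403.8, 4749.4 and 5837.3 in antibiotic-treated livers, against 4379.2, 3925.6 and 4787.3 in untreated ones. The highest untreated liver lay just above the lowest treated one (log2 0.29 ± 0.14, 95% interval -0.01 to 0.58, adjusted p = 0.491). Antibiotic-treated livers had the highest mean, followed by untreated, conventional and germ-free livers, and only the untreated and conventional neighbours did not overlap. Hsp90b1, whose clients include secreted and membrane receptors, had signals of 1787.7, 1969.5 and 2113.1 in germ-free livers, against 2325.9, 2195.4 and 2475.3 in conventional ones. Every germ-free liver was lower, yet the change did not pass (log2 -0.25 ± 0.13, 95% interval -0.53 to 0.02, adjusted p = 0.219). In antibiotic-treated livers its signals were 3371.7, 2951.6 and 3535.5, against 2781.8, 2181.6 and 3212.5 in untreated ones, which overlap (log2 0.28 ± 0.13, unadjusted p = 0.0458, adjusted p = 0.468). The difference between the comparisons was -0.54 ± 0.18 for Hsp90b1 (adjusted p = 0.102, and 0.047 without untreated animal 3) and -0.32 ± 0.19 for Hspa5 (adjusted p = 0.388).

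**Figure D2:**
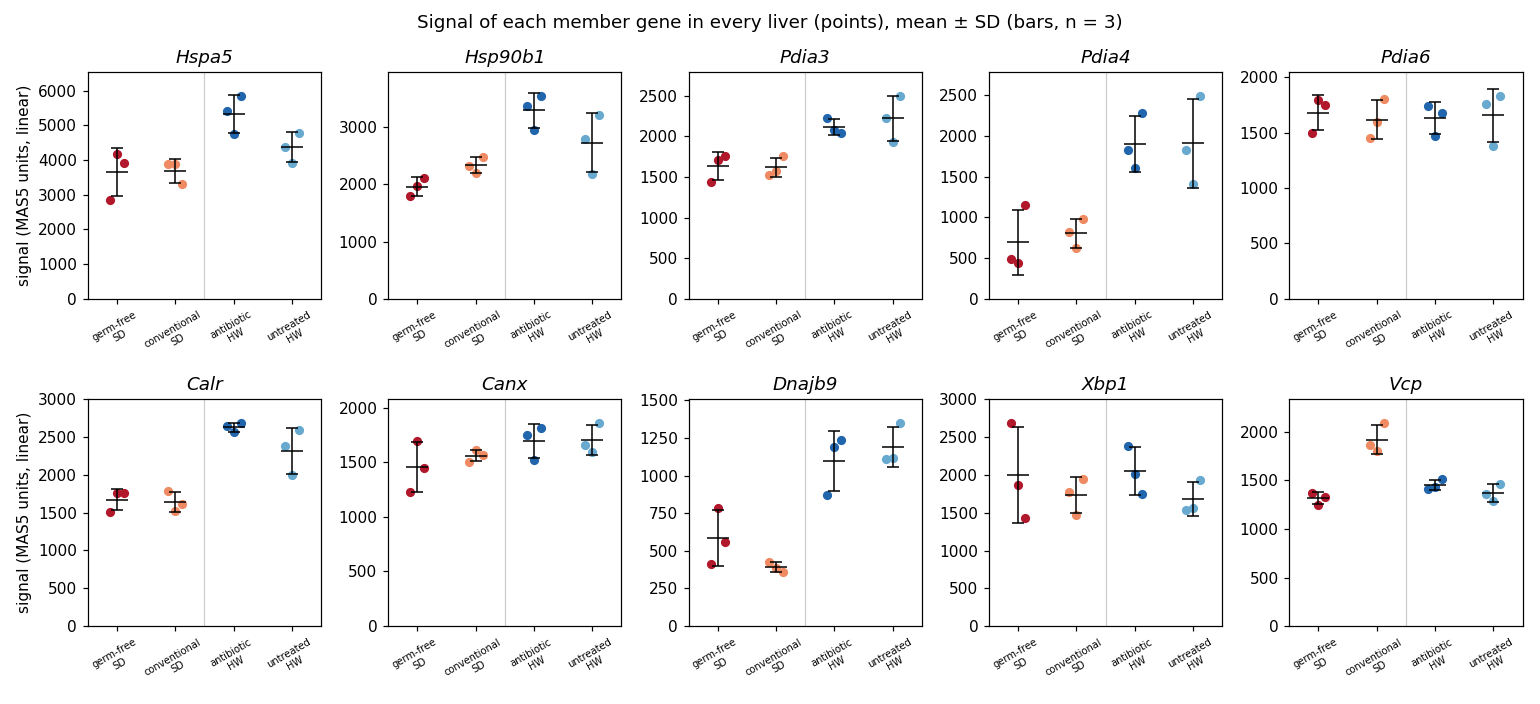
Linear signal (MAS5 units) of the probe set that stands for each of the 10 genes, 1 point per liver, with mean ± SD bars (n = 3) for germ-free and conventional Sprague-Dawley and antibiotic-treated and untreated Han Wistar groups. Vcp is lower in all 3 germ-free than in all 3 conventional livers, and Pdia4 and Dnajb9 are higher in all 6 Han Wistar than in all 6 Sprague-Dawley livers.

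The disulphide isomerases, which form and reshuffle disulphide bonds, showed no call. Pdia3 (ERp57), the isomerase that works beside the lectin chaperones, averaged 1636 ± 169 in germ-free and 1622 ± 118 in conventional rats (SD, n = 3 each; log2 0.01 ± 0.11, 95% interval -0.23 to 0.25). In Han Wistar livers it averaged 2114 ± 97.1 with antibiotics and 2222 ± 280 without (log2 -0.07 ± 0.11). Its other probe set was far dimmer and behaved differently. Its signals were 57.7, 65.7 and 60.1 in germ-free livers, against 50.3, 37.4 and 46.4 in conventional ones, and 55.7, 51.2 and 56.0 in antibiotic-treated livers, against 60.8, 63.5 and 56.4 in untreated ones. Neither pair of groups overlapped, higher in germ-free and lower in antibiotic-treated livers. Fitted among all 31042 probe sets, the changes of log2 0.35 ± 0.13 (adjusted p = 0.143) and -0.12 ± 0.13 (adjusted p = 0.913) did not pass, in comparisons where 4.98% and 0.0129% of probe sets passed. The table does not say which transcript the dimmer probe set reads, so the direction of Pdia3 in germ-free livers rests on the bright one. Pdia6 (P5) was the most even gene across groups, at 1682 ± 158 in germ-free and 1618 ± 175 in conventional livers, and at 1631 ± 142 in antibiotic-treated and 1656 ± 242 in untreated rats (SD, n = 3 each). All its neighbouring groups overlapped, and the log2 fold changes were 0.06 ± 0.12 and -0.01 ± 0.12.

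Pdia4 (ERp72) was the most variable member. Its signals were 492.6, 441.3 and 1159.1 in germ-free animals 1, 3 and 4, against 824.8, 623.0 and 978.7 in conventional animals 6, 7 and 8. Germ-free animal 4 stood above every conventional liver and the other two germ-free livers below every one of them. The log2 fold change was -0.32 ± 0.30 (95% interval -0.97 to 0.33, adjusted p = 0.524), and leaving out 1 animal moved it to between -0.75 (without germ-free animal 4, adjusted p = 0.0574) and -0.07 (without germ-free animal 3, adjusted p = 0.924). Its residual SD of 0.472 lay at the 97.9th percentile of all genes. In Han Wistar livers it averaged 1904 ± 345 with antibiotics and 1910 ± 546 without (SD, n = 3 each; log2 0.02 ± 0.30, 95% interval -0.63 to 0.67). Both intervals hold rises as well as falls, so the direction of any change of Pdia4 was not settled.

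The lectin chaperones Calr and Canx, which bind glucose-tipped sugar chains in the lumen and at the membrane, did not pass. Calr averaged 1674 ± 143 in germ-free and 1646 ± 132 in conventional rats (SD, n = 3 each; log2 0.02 ± 0.11, adjusted p = 0.914). In antibiotic-treated livers it stood at 2641.5, 2562.2 and 2680.9, against 2378.1, 1992.9 and 2592.1 in untreated ones, so that the highest untreated liver fell among the treated (log2 0.19 ± 0.11, adjusted p = 0.6). The brightest Canx probe set averaged 1455 ± 229 in germ-free rats and 1561 ± 53.6 in conventional rats (log2 -0.11 ± 0.12), and 1696 ± 156 with antibiotics and 1703 ± 135 without (log2 -0.01 ± 0.12). Its other probe sets gave log2 fold changes of -0.18 ± 0.11 and -0.02 ± 0.11 in germ-free livers and of -0.03 ± 0.11 and 0.07 ± 0.11 in antibiotic-treated livers. All 3 Canx probe sets thus overlapped between groups in both comparisons.

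Dnajb9 (ERdj4), a co-chaperone that brings Hspa5 to its clients and to the sensor IRE1, had the largest positive value among the members in germ-free livers. Its signals were 410.4, 781.6 and 558.5 in germ-free animals 1, 3 and 4, against 428.3, 384.8 and 362.3 in conventional animals 6, 7 and 8. Germ-free animals 3 and 4 lay above all conventional livers and animal 1 among them. The log2 fold change was 0.51 ± 0.19 (95% interval 0.10 to 0.92, unadjusted p = 0.018, adjusted p = 0.0938). The value depended on single animals and on the fit. It was 0.73 without germ-free animal 1 (adjusted p = 0.014) and 0.63 with array weights (adjusted p = 0.0242), which passed, but 0.28 without germ-free animal 3 and 0.20 with the actin ratio as a covariate (adjusted p = 0.601), which did not. In antibiotic-treated livers its signals were 871.3, 1188.0 and 1239.1, against 1110.7, 1116.1 and 1346.8 in untreated ones, which overlap (log2 -0.12 ± 0.19, adjusted p = 0.883). The difference between the comparisons was 0.64 ± 0.27 (adjusted p = 0.191, and 0.0438 without germ-free animal 1). Xbp1, the transcription factor made active when IRE1 splices its RNA, had signals of 2682.5, 1870.1 and 1437.1 in germ-free livers, against 1771.7, 1472.0 and 1943.2 in conventional ones. Germ-free livers held both the highest and the lowest of these 6 values (log2 0.17 ± 0.19, 95% interval -0.24 to 0.58, adjusted p = 0.609, and -0.07 without germ-free animal 1). In antibiotic-treated livers Xbp1 stood at 2383.3, 2016.0 and 1751.5, against 1537.5, 1564.0 and 1935.5 in untreated ones, with overlap (log2 0.28 ± 0.19, adjusted p = 0.658). A single probe set read Xbp1, and the table does not separate spliced from unspliced transcripts.

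In antibiotic-treated livers 0 of the 10 genes passed limma's test, and 1, Hsp90b1, had an unadjusted p under 0.05. Across all genes 0.0215% passed and 10.4% had an unadjusted p under 0.05, so 0 calls and 1 unadjusted p among 10 lie near the background. The groups of all 10 members overlapped, while those of 18.3% of all genes did not (9.19% higher and 9.12% lower). The log2 fold changes of the 10 genes ran from -0.12 for Dnajb9 to 0.29 for Hspa5, with a median of 0.05 beside 0.00 for all genes. The leading values depended on the processing: after quantile normalization Hspa5 stood at 0.00 (adjusted p = 0.998) and Hsp90b1 at 0.11, and without untreated animal 2 Hsp90b1 stood at 0.13. All 7 hepatocyte markers tested had positive log2 values in antibiotic-treated livers, from 0.14 to 0.47, and 0 passed limma's test (6 at an unadjusted p under 0.05). All 6 macrophage markers tested were also positive there, with a median log2 of 0.52 (0.28 to 0.68), and 0 passed (4 at an unadjusted p under 0.05). They summed to 1619 to 2386 in antibiotic-treated and 1171 to 1610 in untreated livers. The part of those shifts in the values of Hspa5, Hsp90b1 and Calr was not tested. The germ-free and antibiotic fold changes differed for 552 genes (5.94%, 2.69% higher and 3.25% lower in the germ-free comparison), and for 1 of the 10 members, Vcp (lower). In the fit of every probe set the difference passed for 1.6%, among them Vcp (adjusted p = 0.0306) and none of the other 12 member probe sets.

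**Figure D3:**
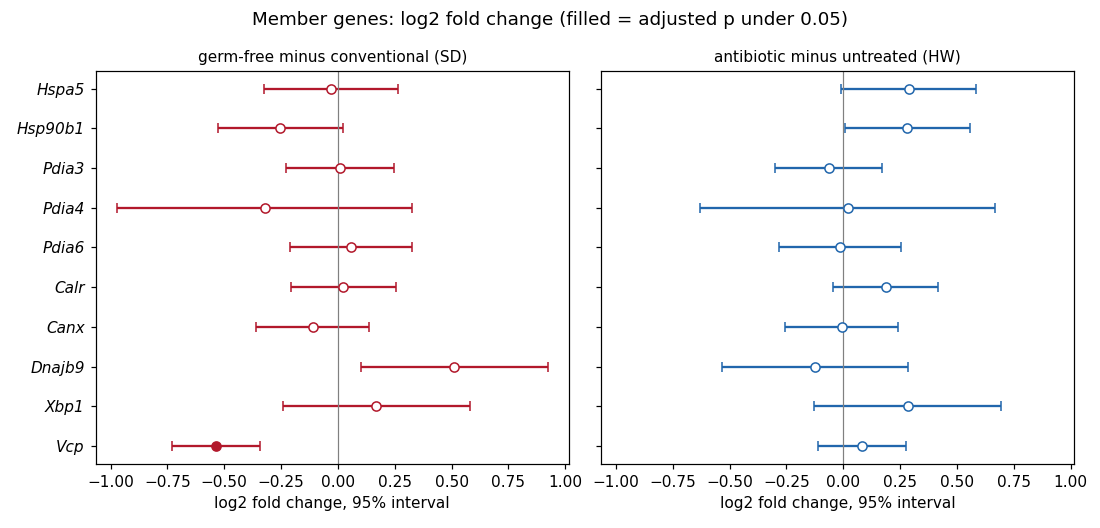
Log2 fold change (log2(signal + 16) scale) of the 10 genes with 95% intervals, germ-free minus conventional on the left and antibiotic minus untreated on the right. Filled points passed limma at an adjusted p under 0.05: Vcp in germ-free livers at -0.54, and no gene in antibiotic-treated livers.

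Animals of a group differed in how many members stood above or below the group mean. In untreated Han Wistar livers all 10 genes of animal 3 stood above the group mean and all 10 of animal 2 below it, while 47.9% of all genes lay above the mean in animal 3 and 51.1% below it in animal 2. In antibiotic-treated animal 14, 9 of the 10 genes lay below the group mean, beside 46.7% of all genes. Germ-free animal 1 was low in 8 of 10 genes, beside 46.4% of all genes, with Xbp1 and Vcp above the mean. In conventional animal 6 and untreated animal 1 the 10 genes were split 5 to 5. In germ-free animal 1 the Xbp1 value was 0.47 above the group mean on the log2 scale and the Hspa5 value 0.33 below it. No test was made of these counts, and deviations within a group sum to 0, so a low animal raises the others.

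**Figure D4:**
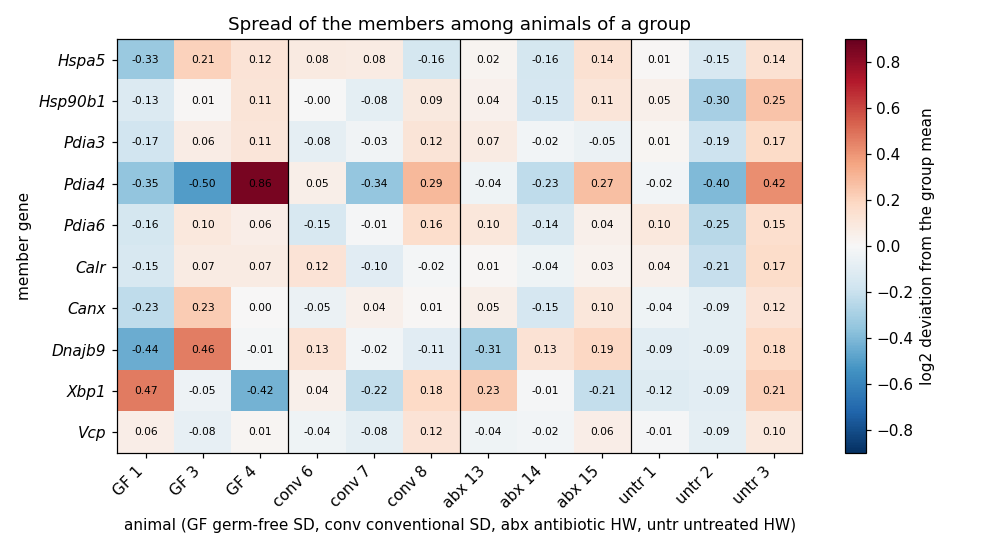
Deviation of each liver from its group mean (log2 scale, colour and number) for the 10 genes, with groups separated by lines. Untreated animal 3 is above the mean in all 10 genes and animal 2 below it in all 10, and Pdia4 in germ-free animal 4 stands out at 0.86.

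The pattern of Hspa5 over the 12 arrays, with the mean of each strain removed from every gene, was compared with that of all other genes by the root mean square difference on the log2 scale. The genes closest to it were Nsmf (0.0881), Mcm5 (0.0903), Serp1 (0.107), Spp2 (0.107) and Pcbp1 (0.109), beside a median of 0.263 over all genes. Among the members Calr came closest, at 0.116 and rank 15 of the other genes, then Canx at 0.135 (rank 61) and Hsp90b1 at 0.155 (rank 202). Pdia4 (0.391), Xbp1 (0.351), Dnajb9 (0.291) and, narrowly, Vcp (0.266) were farther from Hspa5 than the median gene. The measure favours genes with a like amplitude of change.

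Several members stood at separate levels in the 2 strains. All 6 Han Wistar livers lay above all 6 Sprague-Dawley livers for 4 of the 10 genes (Pdia3, Pdia4, Calr and Dnajb9), beside 5.88% of all genes, and for 0 of 10 in the other direction, beside 5.73%. Dnajb9 ran from 871.3 to 1346.8 in Han Wistar and from 362.3 to 781.6 in Sprague-Dawley livers, and untreated over conventional livers gave a ratio of 2.96. Pdia4 ran from 1408.6 to 2491.5 in Han Wistar and from 441.3 to 1159.1 in Sprague-Dawley livers, with a ratio of 2.31 between the control groups. For Calr and the bright Pdia3 probe set these ratios were 1.40 and 1.36. One of the 3 Canx probe sets was also higher in all 6 Han Wistar livers (632.2 to 742.2) than in all Sprague-Dawley livers (395.9 to 532.5), while the brightest was not. Strain and experiment cannot be told apart here. The actin 3' to 5' ratio also separated the strains, at 2.47 to 2.87 in Han Wistar and 3.62 to 6.17 in Sprague-Dawley livers. Group means of the GAPDH ratio lay closer together, at 1.41 and 1.34 in Han Wistar and 1.52 and 1.63 in Sprague-Dawley livers. Some cell type markers separated the strains as well. B and plasma cell markers summed to 72.3 to 124.5 in Han Wistar and 36.7 to 70 in Sprague-Dawley livers, and 1 of their 5 genes passed the filter. The 7 stellate cell markers summed to 998.7 to 1462 in Han Wistar and 1770 to 2412 in Sprague-Dawley livers. Sums of hepatocyte, macrophage, endothelial, bile duct, and T and NK cell markers overlapped between the strains. The part of these markers in the strain levels was not tested, and no test was made of the strain differences.

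In germ-free livers 4 of 24 other ER chaperones and foldases fell, 20 did not pass and 0 rose, beside 6.74% lower and 6.44% higher of all genes. Their median log2 fold change was -0.09, beside 0.02 for all genes. Sil1, the nucleotide exchange factor of Hspa5, averaged 104.5 ± 12.2 in germ-free and 150.1 ± 5.74 in conventional rats (SD, n = 3 each; log2 -0.47 ± 0.12, adjusted p = 0.0176). Txndc5, a thioredoxin-like foldase, changed by -0.47 ± 0.13, Mogs, the glucosidase that trims the first glucose of new sugar chains, by -0.42 ± 0.12, and Erp29, a luminal foldase, by -0.39 ± 0.12. The adjusted p of these 4 genes ran from 0.0176 to 0.0413. Without germ-free animal 3 none of the 4 passed, at fold changes close to those above: -0.39 for Sil1, -0.43 for Txndc5, -0.42 for Mogs and -0.37 for Erp29 (adjusted p of 0.0858, 0.113, 0.105 and 0.122), in a fit that called 654 genes in place of 1226. Without conventional animal 6 Sil1 passed, while Txndc5 moved to -0.30, Mogs to -0.28 and Erp29 to -0.35 (adjusted p of 0.0834, 0.114 and 0.0967). Sil1 also missed without conventional animal 7 (0.0546), Txndc5 and Mogs without germ-free animal 4 (0.0825 and 0.119) and Mogs without untreated animal 2 (0.0504). Erp29 missed without germ-free animal 1 (log2 -0.31, adjusted p = 0.118), conventional animal 7 (0.1), untreated animal 1 (0.0504) or 3 (0.0532) or antibiotic animal 15 (0.0525). With the actin ratio as a covariate 0 of the list passed, but Txndc5 (-0.58), Mogs (-0.53) and Erp29 (-0.45) were then farther from 0 and Sil1 (-0.33) nearer to it. Over all 24 alternatives, fits without 1 animal among them, the call was lost in 12 for Erp29, 9 for Mogs, 5 for Txndc5 and 3 for Sil1. P4hb, the founding disulphide isomerase, had log2 values of -0.03 in germ-free and 0.21 in antibiotic-treated livers, and did not pass. With antibiotics 0 of the 24 passed and 1, Sil1, had an unadjusted p under 0.05, beside 0.0215% and 10.4% of all genes. Sil1 stood at -0.26 ± 0.12 there (limma adjusted p = 0.468) and Txndc5 at -0.20 ± 0.13. The log2 value was positive for 11 of the 24. Of the list genes that also hold ERSE letters, Dnajc3 (0.24 ± 0.11), Ero1b (0.27 ± 0.18) and Creld2 (-0.25 ± 0.22) did not pass in germ-free livers (adjusted p of 0.182, 0.351 and 0.479).

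Genes of ER-associated degradation went both ways. Among 22 tested, 18 did not pass, 3 fell and 1 rose (6.74% and 6.44% of all genes), with a median log2 fold change of -0.07. Ubxn4, an ER membrane protein that recruits Vcp, averaged 964 ± 75.5 in germ-free and 1476 ± 66.6 in conventional rats (SD, n = 3 each; log2 -0.61 ± 0.10, adjusted p = 0.00191). Edem2, which trims mannose from misfolded glycoproteins, averaged 174.7 ± 4.24 and 252.2 ± 9.24 (log2 -0.49 ± 0.10, adjusted p = 0.00534), and Nsfl1c, the Vcp cofactor p47, averaged 323.7 ± 29.4 and 458.6 ± 41.2 (log2 -0.48 ± 0.12, adjusted p = 0.0161). Ubxn4 and Edem2 kept their calls under all 24 alternatives, and Nsfl1c missed without germ-free animal 3 (log2 -0.46, adjusted p = 0.0644) or conventional animal 6 (log2 -0.41, adjusted p = 0.0534). Other cofactors and recruiters of Vcp on the list, a subset picked out after the values were seen, had log2 values of -0.38 for Ufd1, -0.37 for Faf2 and -0.20 for Nploc4, and did not pass (adjusted p of 0.0664, 0.0626 and 0.303). Herpud1, a stress-induced scaffold of the degradation complex, rose: it averaged 1430 ± 143 in germ-free livers, against 832.2 ± 160 in conventional ones (log2 0.78 ± 0.22, adjusted p = 0.0323). It no longer passed when germ-free animal 3, germ-free animal 4 or conventional animal 6 was left out (log2 0.71, 0.79 and 0.62, adjusted p of 0.119, 0.0756 and 0.11), without the filter (log2 0.78, adjusted p = 0.0518) or with the actin ratio as a covariate (log2 0.87, adjusted p = 0.0876). In antibiotic-treated livers 0 of the 22 passed and 2 had an unadjusted p under 0.05, beside 0.0215% and 10.4% of all genes. Rnf5, a membrane ubiquitin ligase, stood at -0.43 ± 0.12 and Sel1l, the adaptor of the ligase Syvn1, at -0.42 ± 0.12 (limma adjusted p of 0.239 and 0.249).

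Sensors and effectors of the unfolded protein response also moved in both directions. Of 14 tested in germ-free livers 1 rose, 2 fell and 11 did not pass, beside 6.44% higher and 6.74% lower of all genes. Eif2ak3 (PERK), the sensor kinase that slows translation, averaged 110.8 ± 18.1 in germ-free and 65.8 ± 6.22 in conventional rats (SD, n = 3 each; log2 0.63 ± 0.13, adjusted p = 0.0056), a call lost with the actin ratio as a covariate (log2 0.44, adjusted p = 0.0757). Creb3l3, a liver transcription factor anchored in the ER membrane, averaged 1903 ± 227 and 3086 ± 178 (log2 -0.70 ± 0.11, adjusted p = 0.000826) and passed under all 24 alternatives. Ppp1r15b, a phosphatase subunit that restores translation, changed by -0.54 ± 0.16 (adjusted p = 0.0442). That call missed when any of 9 animals was left out: germ-free animal 3 (log2 -0.40, adjusted p = 0.189) or 4 (0.117), either of conventional animals 6 (0.136) and 7 (0.108), untreated animal 1 (0.0524), 2 (0.0598) or 3 (0.0515) or antibiotic animal 14 (0.0551) or 15 (0.0511). The Ppp1r15b call was lost in 14 of 24 alternatives. Among them was the fit with the actin ratio as a covariate (log2 -0.43, limma adjusted p = 0.236). Creb3l2, a dim gene, had a log2 value of 0.49 ± 0.19 (adjusted p = 0.0983). In antibiotic-treated livers 0 of the 14 passed and 0 had an unadjusted p under 0.05, beside 0.0215% and 10.4% of all genes. Mbtps1, the protease that cuts ATF6, stood there at 0.21 ± 0.10.

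The entry gate of the ER, made of translocon, signal peptidase and oligosaccharyltransferase subunits, gave no call. Of 21 tested 0 passed in germ-free livers (1 at an unadjusted p under 0.05) and 0 in antibiotic-treated livers (0 at an unadjusted p under 0.05). Of all genes 13.2% and 0.0215% passed in these comparisons, and 28.1% and 10.4% had an unadjusted p under 0.05. The median log2 fold changes of the 21 genes were -0.03 and -0.09. The gene with an unadjusted p under 0.05 was Sec63, the translocon partner that engages Hspa5, at 0.35 ± 0.12 (adjusted p = 0.0642, and 0.0417 without conventional animal 7). Ssr4, Sec61a1 and Sec11a had log2 values of -0.14, -0.20 and -0.16 in germ-free livers. Ssr3 and Sec11c had -0.18 each in antibiotic-treated livers.

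Chaperones of the cytosol and mitochondria, do the same work in other compartments. In germ-free livers 7 of 12 fell, 5 did not pass and 0 rose (6.74% lower and 6.44% higher of all genes), with a median log2 fold change of -0.33. Hspb1, a small heat shock protein, averaged 42.5 ± 9.35 in germ-free and 186.5 ± 88.9 in conventional rats (SD, n = 3 each; log2 -1.68 ± 0.32, adjusted p = 0.00367), and Hsph1, a partner of the cytosolic 70-kilodalton chaperones, averaged 845.4 ± 110 and 1359 ± 152 (log2 -0.68 ± 0.11, adjusted p = 0.00127). Hspa9, the mitochondrial counterpart of Hspa5, changed by -0.52 ± 0.14 (adjusted p = 0.0234) and by -0.37, -0.50 and -0.41 when germ-free animal 3, conventional animal 6 or conventional animal 8 was left out (adjusted p of 0.113, 0.0591 and 0.0878), beside -0.03 ± 0.14 for Hspa5 itself. Hspa9 also missed with the 6 arrays of the comparison alone (limma adjusted p = 0.0773) or with the actin ratio as a covariate (log2 -0.44, limma adjusted p = 0.152). Dnajb1 changed by -0.62 ± 0.17 (adjusted p = 0.0239), which missed when germ-free animal 3, germ-free animal 4, conventional animal 6 or conventional animal 7 was left out (adjusted p of 0.0687, 0.073, 0.0828 and 0.0662), at log2 values of -0.63, -0.59, -0.45 and -0.60. The number that fell was 3 without germ-free animal 3 or conventional animal 6, and 4 without conventional animal 7 or 8. It was also 3 with the 6 arrays of the comparison alone and 4 with the actin ratio as a covariate. In antibiotic-treated livers 0 of 12 passed and 4 had an unadjusted p under 0.05, beside 0.0215% and 10.4% of all genes. Hsp90ab1 stood there at 0.40 ± 0.10 and Hspd1 at 0.34 ± 0.09 (limma adjusted p = 0.177 each). No test compared this list with the ER genes. Endothelial markers moved in germ-free livers as well: 5 of 6 tested rose (median log2 0.93), and all 6 summed to 1279 to 1803 in germ-free, against 697.2 to 879.5 in conventional livers. Their part in the changes of Vcp and the other genes was not tested.

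**Figure D5:**
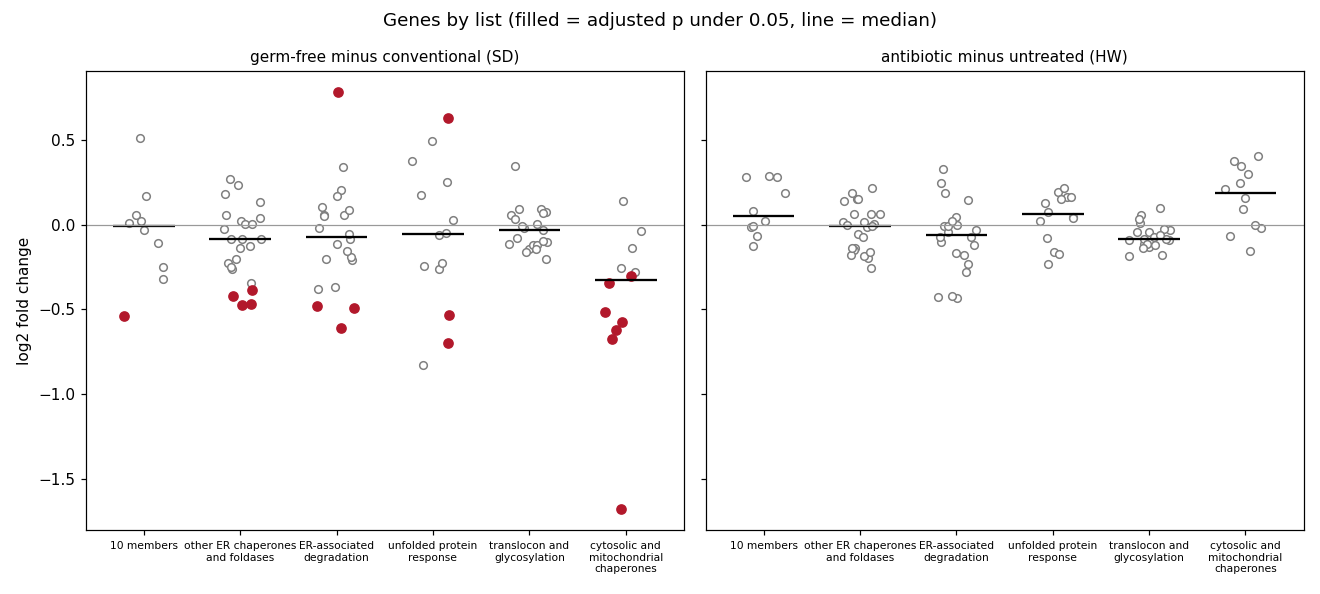
Log2 fold change of each tested gene (points) for the 10 members and 5 lists of related genes, germ-free minus conventional on the left and antibiotic minus untreated on the right, with the median of each list as a line. Filled points passed limma at an adjusted p under 0.05: 1 of 10 members and 7 of 12 cytosolic and mitochondrial chaperones in germ-free livers, and none in antibiotic-treated livers.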

How the data were processed

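Array signals are intensity values on a linear scale, 1 for each of 31099 probe sets and 12 arrays, deposited by the authors. MAS5 made them, per the submitters' processing notes, which name no version. Each array had a trimmed mean of 100.0 to 100.1 (2% off each end), so no further scaling was applied. No detection calls were used. The platform annotation gave 20826 of 31042 non-control probe sets a single symbol, 436 more than 1 and 9780 none. Symbols follow GRCr8, found by gene identifier (20758) or accession (2), with 66 left as annotated. The filter kept probe sets whose mean signal reached 19.67 (the median), and the brightest stood for each of 9300 genes. limma 3.58.1 (R 4.3.3) fitted log2(signal + 16) with 1 mean per group over all 12 arrays and an intensity trend. Its two-sided p-values were adjusted by Benjamini-Hochberg over all genes. A second fit took all 31042 probe sets with no filter. The fit was tested on simulated data.

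Members, lists and tests were chosen with earlier results of these data known. Besides the 10 members, each pathway list gives up to 4 genes with the smallest p in the germ-free comparison and up to 2 in the antibiotic comparison. Others were named after their values were seen. Promoter sequences are RefSeq's (GRCr8), and 1 result on a member's promoter is not reported here. Correlations between arrays of 1 group were 0.977 to 0.987 over genes, and no arrays were identical. Precision is limited by the number of arrays. limma's p-values set each difference against a spread between animals that is pooled over the 4 groups. That spread is drawn towards the one usual for genes of like intensity.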

Additional observations from a re-analysis of the deposited data

Results flagged for a closer look

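For the genes below, the germ-free minus conventional and antibiotic minus untreated fold changes differed by limma's test of the difference (adjusted p under 0.05), as 5.94% of all genes did. Among the 10 members this held for Vcp, at -0.62 ± 0.13 (adjusted p = 0.0119). Among ER-associated degradation genes it held for Herpud1, at 1.21 ± 0.31 (adjusted p = 0.0378), with a log2 value of 0.78 in germ-free and -0.43 in antibiotic-treated livers. That call was lost in 12 of 23 alternatives, 8 of which left out 1 animal each, with adjusted p up to 0.0981. In the unfolded protein response it held for Creb3l3, at -0.86 ± 0.15 (adjusted p = 0.0047), and for Eif2ak3, at 0.86 ± 0.18 (adjusted p = 0.0142). Among the cytosolic and mitochondrial chaperones named here it held for Hspb1 at -1.77, Hsph1 at -0.88, Hspa9 at -0.77, Hsp90ab1 at -0.68 and Hspd1 at -0.60. Hspb1 and Hspa9 lost that call in 12 and 11 of 23 alternatives. With the actin ratio as a covariate it was also lost for Vcp (-0.58, adjusted p = 0.0776), Eif2ak3 (0.61, adjusted p = 0.114), Hsph1 (-0.76, adjusted p = 0.0504) and Hspd1 (-0.61, adjusted p = 0.0537). Creb3l3 and Hsp90ab1 kept it under all 23. Treatment, strain and experiment differ together between the comparisons and cannot be told apart.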

How the results depend on the processing

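Of 30 results for the 10 members (each gene in both comparisons and in their difference), 26 stayed on their side of the threshold under every one of up to 24 alternatives and none reversed a called direction. The exceptions were Dnajb9 in germ-free livers and the differences of Dnajb9, Hsp90b1 and Vcp, as given in the report. Values that did not pass changed sign for 15 of the 30. Array weights called 2 members in germ-free livers, and the actin covariate called 0 in the difference. Leaving out each animal gave 1 to 2 members in germ-free livers, 0 in antibiotic-treated livers and 1 to 2 in the difference. Over all genes, the actin covariate gave 606 calls in germ-free livers, where 1226 passed, and 654 to 1236 passed without 1 animal. For the difference (552) array weights gave 869, the actin covariate 230 and leaving out 1 animal 296 to 600. For antibiotics (2) an offset of 1 gave 1, no filter 4, the 75th percentile filter 0, a robust prior 6, array weights 15 and leaving out 1 animal 0 to 10. The other alternatives were an offset of 64, quantile normalization, median centring, the 6 arrays of a comparison alone, no intensity trend and the mean over probe sets in place of the brightest. The cause of these shifts was not tested. No paired analysis was possible because the groups compared share no animal number. MAS5 gives no depth, and signal over background cannot be read without detection calls.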
